A study of Mus musculus with 6 samples.

Results

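The spliceosome genes of mouse small intestinal organoids were examined for their response to MMK-1, a synthetic peptide that activates the receptor FPR2. The members are the 129 protein-coding genes, of 16428 protein-coding and 21397 listed genes, whose pathway annotation in the deposited expression table holds the KEGG term Spliceosome. The rule used only this annotation and no measured value. Crypts of adult Fpr2f/f mice, which carry a floxed allele of the receptor gene, gave the organoids of both groups. The Control group received the vehicle, 0.1% DMSO, and the MMK-1 group received the peptide, with RNA taken at day 5 in 3 libraries per group. The protocol gives a dose of 1 µM, whereas the treatment label of the MMK-1 libraries gives 1 mM, and the protocol is followed here. Each library pooled organoids from 3 mice, and the sources used here do not say whether the libraries of a group came from different mice or cultures, so the p-values measure only the spread between these libraries. Organoids hold only epithelium that grows out from crypts, without the tissue around them.

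The spliceosome removes introns from precursor mRNA. Its U1, U2, U4, U5 and U6 particles each pair a small nuclear RNA with a ring of Sm or LSm proteins and with particle-specific proteins, and helicases remodel the assembly at each step. SR proteins and hnRNP proteins bind exons and introns and set which splice sites are used, and the exon junction complex marks the joined exons for export and quality control. In the small intestine, stem and transit-amplifying cells divide in the crypt and feed the differentiated cells of the villus.

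Expression is given as FPKM, the fragments of a gene divided by its length and by the size of the library, and each fold change as the difference of mean log2(FPKM + 1), MMK-1 minus Control. Library totals were between 35512739 and 37537463 fragments. Of the 129 members, 125 had a mean FPKM of at least 1 and were tested with limma among 10551 genes in all. In these 125 genes the fragments per library had a median of 1798, and the lowest value was 80, of Hspa1b. The 2 groups separated along the first principal component of all genes, with 92.4% of the variance, and MMK-1 replicate 3 stood apart from the other MMK-1 libraries on the second, with 4.48%. The chi-square per degree of freedom, near 1 where only counting noise separates a pair of libraries, was 3.46 for MMK-1 replicates 1 and 2. For replicate 3 it was 34.4 against replicate 1 and 29.4 against replicate 2, and Control pairs gave 4.78 or less.

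Most spliceosome genes were modestly higher with MMK-1. With a limma p, adjusted by Benjamini-Hochberg, of at most 0.05, 89 of the 125 tested members were higher, or 71.2%, where 48.5% of all genes tested were higher. The members that were lower numbered 4, where 24.7% of all genes were lower, and 32 did not pass the test. With at least a 2-fold change and a raw p of at most 0.05, 2 members, Srsf1 and Tra2a, were higher and 0 were lower, against backgrounds of 3.39% and 3.65% of all genes. After a GC correction 0 members were at least 2-fold higher, where 3.30% of all genes were. Srsf1 and Tra2a then lay just below the threshold, with log2 fold changes of 0.98 and, rounded, 1.00. Under upper-quartile or median-of-ratios scaling 1 member was at least 2-fold higher, where 2.62% and 2.18% of all genes were. The median log2 fold change was 0.30 over the members and 0.13 over all genes tested, and 87 members lay above the latter. Taken library by library, the median log2 difference of the members from the Control mean was 0.28, 0.27 and 0.32, and that of all genes was 0.12, 0.12 and 0.15. The typical gene of the table was thus also slightly higher. Upper-quartile scaling moved the median of all genes to 0.06 and gave 76 members higher and 11 lower, where 41.7% and 31.2% of all genes were higher and lower. Scaling the libraries by the median of ratios moved the median of all genes to 0.01 and the median of the members to 0.16, with 71 members higher and 21 lower, where 35.9% and 36.3% of all genes were higher and lower. Without MMK-1 replicate 3 the counts were 89 higher and 12 lower, against 49.2% and 27.9% of all genes, and 5 members were at least 2-fold higher, against 4.11%.

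The changes were small for most members and fell on a continuous range. A log2 fold change from 0.25 to 0.5 was seen in 43 members and one from 0.5 to 1 in 28, and all of these passed the test. Of the 35 members from 0 to 0.25, 16 passed, and of the 17 below 0, 4 passed. The standard errors of the members that passed lay between 0.0384 and 0.179, and the members that did not pass had log2 fold changes from -0.11 to 0.14. In 97 of the 125 members the FPKM values of the groups did not overlap, where 76.8% of all genes did not, with 92 higher and 5 lower with MMK-1, and all genes tested gave 50.5% and 26.3% in these directions. An exact two-sided permutation test of such a member gives p = 0.1, the smallest value possible with 3 libraries against 3.

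As a share of the whole transcriptome, the spliceosome genes together took up 1.08%, 1.07% and 1.05% of the summed FPKM in the Control libraries. In the MMK-1 libraries they took up 1.27%, 1.27% and 1.30%. The 3 MMK-1 libraries were all above the 3 Control libraries. Counted in fragments, which also weight long genes, the shares were 1.29%, 1.27% and 1.26% with the vehicle and 1.55%, 1.54% and 1.53% with MMK-1. Since these are bulk libraries, a change in the number of cells of a type and a change in RNA per cell cannot be told apart.

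**Figure D1:**
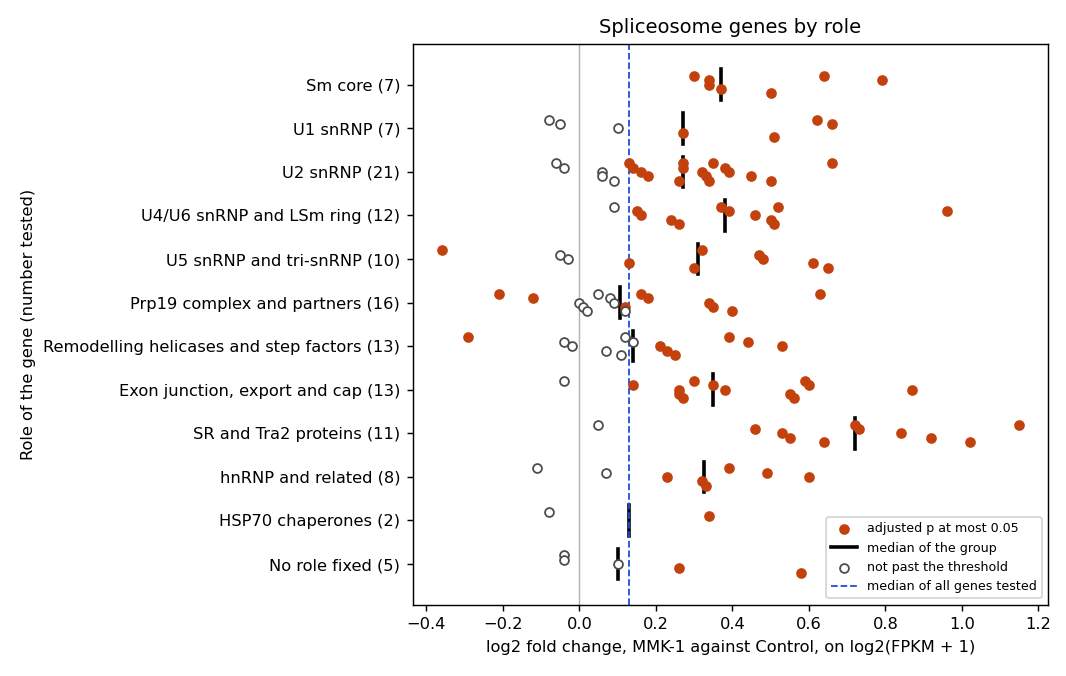
Each point is 1 of the 125 tested spliceosome genes, placed by its log2 fold change (MMK-1 against Control, on log2(FPKM + 1)) in the row of its role. Filled points passed an adjusted p of 0.05 in limma, black bars are the medians of the groups, and the dashed line is the median of all genes tested, 0.13. The SR and Tra2 genes had the highest group median, 0.72, and the 4 genes that were lower lie in the U5, Prp19 and helicase rows.

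The SR and Tra2 proteins, RNA-binding proteins with arginine- and serine-rich domains that promote exon inclusion, were the group with the highest median. The counts of this and every following role group are read against the shares of all genes tested, 48.5% higher and 24.7% lower, or 35.9% and 36.3% under median-of-ratios scaling. Of their 11 genes, 10 rose, none fell, and their median log2 fold change was 0.72. Under median-of-ratios scaling 10 were higher and Srsf5 was lower, with a median of 0.58. The summed FPKM of the group was 584, 597 and 581 with the vehicle and 889, 865 and 757 with MMK-1, so that MMK-1 replicate 3 lay between the Control libraries and the other MMK-1 libraries. The promoters of 3 genes that rose, of the SR gene that did not pass and of the member that fell most are shown. They are examples picked with their values known, and other members with clear rises, such as Lsm5, Snrpa1 and Ddx23, are not shown. Each sequence is the 250 bases before a transcription start in RefSeq, on build GRCm38.p6, 5′ to 3′ on the strand of the gene, and capitals mark complete ETS, E2F and CCAAT letters as spelled out with the motif counts. The windows are chr11:88047123-88047372 (plus strand) for Srsf1, chr6:49264053-49264302 (minus strand) for Tra2a, chr4:135855821-135856070 (plus strand) for Srsf10, chr12:80945249-80945498 (plus strand) for Srsf5 and chr2:181601069-181601318 (plus strand) for Prpf6. Srsf1, Tra2a and Srsf10 have annotated gene spans that extend past the listed start, so that other starts exist.
Srsf1: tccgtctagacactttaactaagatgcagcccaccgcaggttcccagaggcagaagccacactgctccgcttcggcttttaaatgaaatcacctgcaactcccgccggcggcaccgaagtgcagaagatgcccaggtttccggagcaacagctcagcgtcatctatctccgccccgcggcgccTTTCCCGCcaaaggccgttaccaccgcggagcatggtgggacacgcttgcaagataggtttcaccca
Tra2a: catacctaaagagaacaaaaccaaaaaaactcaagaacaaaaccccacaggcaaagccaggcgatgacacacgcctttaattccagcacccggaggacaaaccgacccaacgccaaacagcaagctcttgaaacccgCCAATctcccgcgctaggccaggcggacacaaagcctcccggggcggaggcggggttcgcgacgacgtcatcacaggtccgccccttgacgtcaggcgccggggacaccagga
Srsf10: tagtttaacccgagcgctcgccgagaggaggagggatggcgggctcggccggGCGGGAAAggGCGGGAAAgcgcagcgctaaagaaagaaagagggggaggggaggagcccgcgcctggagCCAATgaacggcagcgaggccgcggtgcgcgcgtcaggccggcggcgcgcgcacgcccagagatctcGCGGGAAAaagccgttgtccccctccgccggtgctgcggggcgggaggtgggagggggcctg
Srsf5: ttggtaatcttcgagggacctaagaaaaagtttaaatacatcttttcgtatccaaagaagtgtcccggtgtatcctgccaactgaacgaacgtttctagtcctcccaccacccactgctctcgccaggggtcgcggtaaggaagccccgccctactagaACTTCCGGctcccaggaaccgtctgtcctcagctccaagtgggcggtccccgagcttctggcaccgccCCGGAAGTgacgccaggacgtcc
Prpf6: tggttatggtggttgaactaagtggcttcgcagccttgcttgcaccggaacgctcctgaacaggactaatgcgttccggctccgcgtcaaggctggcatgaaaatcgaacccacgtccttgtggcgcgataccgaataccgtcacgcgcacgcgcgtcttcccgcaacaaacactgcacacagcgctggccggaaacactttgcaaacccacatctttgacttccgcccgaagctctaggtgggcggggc

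Srsf1, which selects 5′ splice sites and is the founding member of the SR family, had the largest change of all members. Its gene lies on chromosome 11 from 88046499 to 88053757. The Control libraries had 31.6, 32.7 and 32.9 FPKM and the MMK-1 libraries 89.2, 85.1 and 51.5. All MMK-1 libraries were above all Control libraries, but replicate 3 was well below the other two. The log2 fold change was 1.15 with a standard error of 0.175 (adjusted p = 0.00035, limma, n = 3 per group), 1.40 without MMK-1 replicate 3 and 0.98 after the GC correction. Tra2a, a splicing activator related to the Drosophila transformer-2 protein, lies on chromosome 6 from 49243921 to 49264248 and rose from 22.6, 23.3 and 21.1 to 55.6, 51.7 and 34.1 FPKM. Its log2 fold change was 1.02 ± 0.154 (SE, adjusted p = 0.00034), with the same order of the MMK-1 libraries. Its paralog Tra2b rose by less, from a mean of 30.7 ± 0.556 to 52.3 ± 11.3 FPKM (SD, n = 3), and its log2 fold change was 0.72. Tra2a made up 42.9%, 43% and 40.4% of the summed FPKM of the pair with the vehicle and 48.3%, 47.2% and 46.5% with the peptide.

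Srsf10, which can act as a splicing repressor when dephosphorylated, rose from 11.5, 11.5 and 11.7 FPKM to 27.4, 25.3 and 17.3. Srsf3, the smallest SR protein and a factor also in mRNA export, rose from 49.7, 50.9 and 46.6 to 95.6, 97.1 and 74.3. Srsf7, its close relative, rose from 34.9, 36.0 and 36.8 to 64.1, 61.6 and 54.7. In all of these genes MMK-1 replicate 3 was the lowest MMK-1 library and still above every Control library. Their log2 fold changes were 0.92, 0.84 and 0.73, each with an adjusted p of at most 0.00034 in limma. Srsf5 was the most abundant gene of the group and did not pass the test. Its values were 237, 235 and 229 FPKM with the vehicle and 244, 236 and 249 with MMK-1, and they overlapped. Its log2 fold change was 0.05 (adjusted p = 0.23), and it was -0.03 with upper-quartile scaling, -0.09 with median-of-ratios scaling and -0.13 after correcting for GC content. The remaining SR genes, Srsf2, Srsf4, Srsf6 and Srsf9, had log2 fold changes of 0.53, 0.64, 0.46 and 0.55 and are named after their values were seen.

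**Figure D2:**
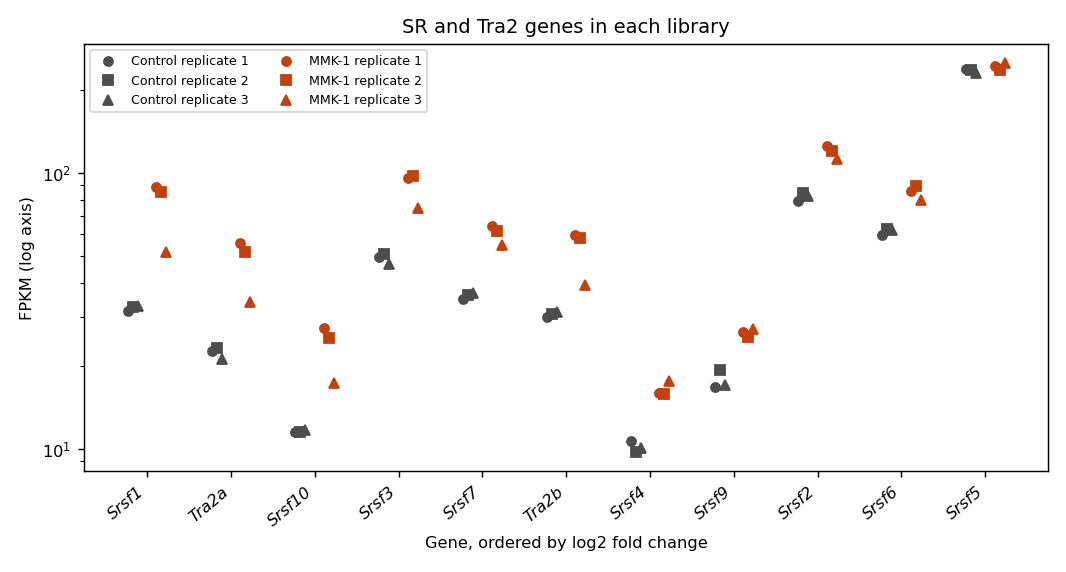
FPKM on a log axis of the 11 SR and Tra2 genes in each of the 6 libraries, ordered by log2 fold change, with Control in grey and MMK-1 in orange and a marker shape for each replicate number. In 8 of the 11 genes MMK-1 replicate 3 (orange triangles) was the lowest of the MMK-1 libraries, and in Srsf5 at the right the groups overlapped.

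The pattern of MMK-1 replicate 3 differed between these and most other spliceosome genes. It was above both other MMK-1 libraries in 88 of the 125 members (70.4%) and below both in 27 (21.6%), and the shares over all genes tested were 60.7% and 23.8%. The 27 members in which it was lowest had a median GC content of 40.9% and a median log2 fold change of 0.53, whereas the 88 in which it was highest had 50.3% and 0.22. Over all genes tested the corresponding GC contents were 43.2% and 51.9% and the median log2 fold changes 0.31 and 0.09. The gene lengths implied by the FPKM values had medians of 3755 and 2208 bases in these members. Over all genes tested these lengths were 4478 and 3151 bases. The SR and Tra2 genes had a median GC content of 41.6%, against 47.5% for all members and 49.7% for all genes tested. With GC content corrected, the SR and Tra2 genes had a median of 0.60 and 10 of 11 were still higher, and without MMK-1 replicate 3 their median was 0.79. Without this library 8 more members passed as lower, with log2 fold changes from -0.15 to -0.09. They were Ddx39b, Hspa8, Pqbp1, Sf3b2 and Snrpc and, named after their values were seen, Rp9, Snrnp70 and Snrnp200. After the GC correction 94 members were higher and 5 lower, where 50.6% and 25.0% of all genes were. The part of GC content, of gene length or of RNA quality in the position of this library was not tested.

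**Figure D3:**
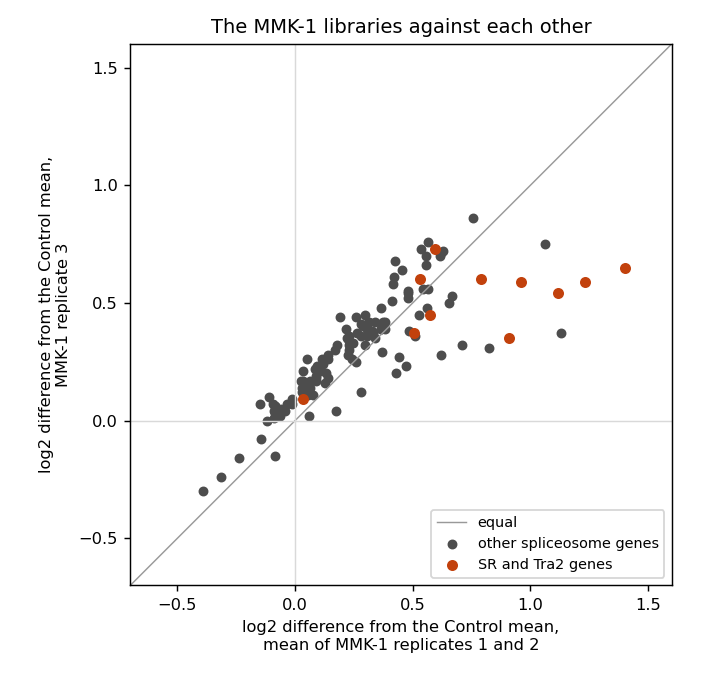
Log2 difference of each of the 125 members from the Control mean in MMK-1 replicate 3 (vertical axis) against the mean of MMK-1 replicates 1 and 2 (horizontal axis), both on log2(FPKM + 1), with a line where both are equal. Most points lie just above the line, and the SR and Tra2 genes with the largest changes, such as Srsf1 at 0.65 in replicate 3, lie below it.

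All 7 Sm proteins, which form the ring shared by the U1, U2, U4 and U5 particles, were higher, with a median of 0.37 and a range from 0.30 for Snrpd3 to 0.79 for Snrpg, and all 7 were also higher under upper-quartile and median-of-ratios scaling. Snrpg had 41.92, 49.96 and 57.04 FPKM with the vehicle and 87.6, 80.2 and 90.0 with MMK-1. Snrpd3 had 78.1, 76.9 and 71.3 against 92.9, 90.4 and 96.8. Both were separated without overlap. In the U4/U6 group, which includes the LSm ring on the U6 RNA, 11 of 12 genes were higher and none lower, with a median of 0.38, and 8 were higher under upper-quartile or median-of-ratios scaling. Lsm5, a ring subunit, had the largest change, from 8.63, 10.6 and 8.22 FPKM to 18.8, 21.3 and 16.0. Its log2 fold change was 0.96 ± 0.111 (SE, adjusted p = 6.8e-05), but 0.54 after the GC correction, and its GC content was 33.9%. Prpf31, which joins the U4/U6 particle to U5, did not pass, with a log2 fold change of 0.09 (adjusted p = 0.20) and -0.05 under median-of-ratios scaling, but it passed as higher at 0.16 after the GC correction.

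U1 and U2 recognise the 5′ splice site and the branch point. In the U1 group 4 of 7 genes were higher, a share near the 48.5% of all genes, and 3 did not pass, with a median of 0.27, and 4 were higher and 2 lower under median-of-ratios scaling. Prpf40b, a U1-associated protein, had values of 4.34, 4.80 and 4.61 against 4.57, 5.11 and 5.26, which overlapped, with an adjusted p of 0.18, and it passed as higher at a log2 fold change of 0.15 after the GC correction. Snrpc, the U1-C protein, had 22.6, 24.6 and 21.6 FPKM against 21.11, 20 and 24.03, with a log2 fold change of -0.08 (adjusted p = 0.37), and it passed as lower at -0.22 under median-of-ratios scaling. In the U2 group 16 of 21 were higher and none lower, with a median of 0.27. Snrpa1, the U2-specific A′ protein, was at the top with 21.06, 20.61 and 19.99 FPKM against 32.1, 32.6 and 34.5, a log2 fold change of 0.66 ± 0.0448 (SE, adjusted p = 2.5e-06). Sf3b2, a subunit of the SF3B branch point complex, was at the bottom with 65.5, 65.5 and 62.7 against 61.5, 59.6 and 65.1, values that overlapped. Its log2 fold change was -0.06 and 0.02 after the GC correction, but it passed as lower at -0.14 (adjusted p = 0.012) under upper-quartile scaling and -0.20 (adjusted p = 0.0015) under median-of-ratios scaling. Under median-of-ratios scaling 11 U2 genes were higher and 2 lower.

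The U5 and tri-snRNP group held the gene that fell most. Of its 10 genes, 7 were higher and 1 was lower, with a median of 0.31, and under median-of-ratios scaling 5 were higher and 3 lower. In all 10 genes MMK-1 replicate 3 was the highest MMK-1 library. Prpf6, a bridging protein of the tri-snRNP on chromosome 2 from 181601319 to 181655661, had 24.9, 24.7 and 25.1 FPKM with the vehicle and 18.99, 18.49 and 20.01 with MMK-1. The groups were well apart, and the log2 fold change was -0.36 ± 0.0435 (SE, adjusted p = 8.4e-05). It was -0.44 under upper-quartile scaling, -0.50 under median-of-ratios scaling and -0.29 after the GC correction. Ddx23, the helicase that is needed for the tri-snRNP to join, moved the other way, from 17.9, 17.4 and 18.2 to 27.4, 28.5 and 29.7, with a log2 fold change of 0.65 (adjusted p = 3.1e-06).

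The Prp19 complex and its partners, which hold the catalytic centre together, and the remodelling helicases and step factors had the lowest medians among the groups with more than 5 tested genes, 0.11 and 0.14. In the Prp19 group 7 of 16 were higher and 2 lower, and in the helicase group 6 of 13 were higher and 1 lower, shares of higher genes near the 48.5% of all genes tested. Under median-of-ratios scaling the Prp19 group had 4 higher and 4 lower with a median of -0.04, and the helicase group 4 higher and 3 lower. Slu7, a factor for the second catalytic step that helps choose the 3′ splice site, fell from 11.1, 12.1 and 11.6 FPKM to 8.62, 9.66 and 9.66, with a log2 fold change of -0.29 (adjusted p = 0.0016). Syf2, a partner of the Prp19 complex, fell from 22.8, 25.2 and 23.7 to 20.3, 19.9 and 21.3, with -0.21 (adjusted p = 0.0043). Both groups of values were separate. Cwc15, another partner, had 33.5, 32.2 and 33.7 against 28.4, 31.4 and 31.2 and passed only just, with -0.12 (adjusted p = 0.049). It no longer passed when any single Control library or MMK-1 replicate 1 was left out, with a replicate block, with every gene above 0 tested or with limma-voom on fragments. It still passed under upper-quartile scaling (-0.20), under median-of-ratios scaling (-0.27), after the GC correction (-0.16) and without MMK-1 replicate 3 (-0.14). At the other end, Ppil1, a peptidyl-prolyl isomerase of the activated spliceosome, rose from 21.8, 22.6 and 22.0 to 33.5, 33.0 and 38.2, with 0.63 (adjusted p = 1.7e-05). Dhx15, the helicase that takes apart the spent spliceosome, rose from 36.5, 37.8 and 36.9 to 55.4, 54.6 and 52.1, with 0.53 (adjusted p = 5.2e-06). Ddx5, an abundant RNA helicase, rose from 206, 205 and 201 to 250, 247 and 222, with 0.23 (adjusted p = 0.003), but 0.08 (adjusted p = 0.21) under median-of-ratios scaling.

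**Figure D4:**
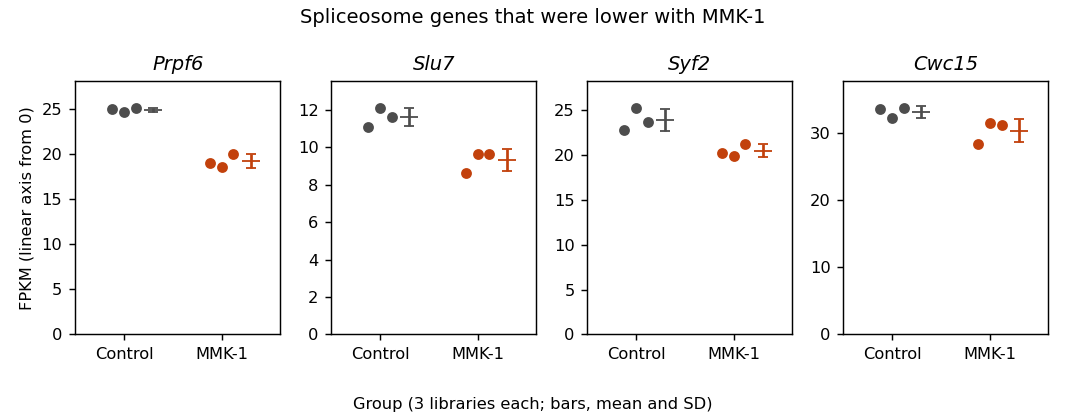
FPKM of the 4 spliceosome genes that were lower with MMK-1, on linear axes from 0, with a point for each of the 3 libraries per group and the mean with its SD beside them. The groups do not overlap in any of the 4 genes, and the gap is narrowest in Cwc15, between 31.4 and 32.2 FPKM.

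Among the proteins of the exon junction, mRNA export and the cap, 12 of 13 tested genes were higher and none lower, with a median of 0.35. Thoc2, the scaffold of the THO export complex, had 6.95, 6.99 and 7.15 FPKM with the vehicle and 17.2, 15.9 and 9.36 with MMK-1. All were above the Control values, yet replicate 3 was much closer to them, and the log2 fold change was 0.87 ± 0.179 (SE, adjusted p = 0.002) with it and 1.13 without it. Thoc2l, a related copy on another chromosome with no role assigned here, showed the same order, with 2.45, 2.16 and 2.19 against 4.48, 4.20 and 3.08. How reads shared by near-identical copies were counted is not given in the sources used here, so the split between such pairs is uncertain. Magoh and Magohb, the paralogous core proteins of the exon junction complex, had log2 fold changes of 0.30 and 0.55. Magoh made up 89.3%, 89.8% and 88.8% of the pair with the vehicle and 87.0%, 86.3% and 86.8% with MMK-1. Alyref, the adaptor that brings mRNA to the exporter, rose from 32.4, 33.6 and 32.8 to 47.1, 49.3 and 55.2, and its minor paralog Alyref2 had a log2 fold change of 0.27 (adjusted p = 0.013), a call that was lost under median-of-ratios scaling (0.17, adjusted p = 0.088), with every gene above 0 tested (adjusted p = 0.051) and without Control replicate 1 (0.22). Ddx39b, the export helicase also known as UAP56, was the abundant exception at 136, 129 and 132 FPKM against 126, 123 and 139. Its log2 fold change was -0.04 (adjusted p = 0.54), 0.03 after the GC correction and -0.18 under median-of-ratios scaling, where it passed the test as lower.

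The hnRNP proteins, which package nascent RNA and often oppose SR proteins, were mostly higher, with 6 of 8 genes higher, none lower and a median of 0.32, and under median-of-ratios scaling 5 were higher and 2 lower. Hnrnpu, a nuclear scaffold protein, rose from 26.8, 26.6 and 26.2 FPKM to 42.1, 42.8 and 38.0, with 0.60 (adjusted p = 9e-06). Pcbp1, a poly(C)-binding protein, rose from 189, 189 and 188 to 230, 227 and 251, with 0.32 (adjusted p = 0.00024). Hnrnpa1, one of the most abundant members, had 191, 190 and 192 against 195, 202 and 206. Its groups did not overlap, but the log2 fold change was 0.07 (adjusted p = 0.11), and it passed as lower at -0.07 (adjusted p = 0.047) under median-of-ratios scaling. Rbmx, an X-linked RNA-binding protein, had 16.5, 15.9 and 15.7 against 15.6, 14.5 and 14.4, with -0.11 (adjusted p = 0.074). It passed as lower under upper-quartile scaling (-0.18, adjusted p = 0.0089), under median-of-ratios scaling (-0.24, adjusted p = 0.0022) and after the GC correction (-0.13, adjusted p = 0.019). It made up 59.6%, 57.9% and 56.7% of the summed FPKM of Rbmx and its retrocopy Rbmxl1 with the vehicle and 43.7%, 41.5% and 40% with MMK-1, a share that depends on how shared reads were counted.

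The KEGG pathway also includes HSP70 chaperones, of which 2 of 4 were tested, with 1 higher and none lower. Hspa8, the constitutive chaperone, was the most abundant member, at 1001, 953 and 929 FPKM with the vehicle and 873, 897 and 960 with MMK-1. The values overlapped, and the log2 fold change was -0.08 (adjusted p = 0.17), but Hspa8 passed as lower at -0.16 under upper-quartile and -0.23 under median-of-ratios scaling. The inducible Hspa1b was near the limit of the test at 0.8931, 0.7584 and 0.7997 against 1.37, 1.31 and 1.23 FPKM, and its log2 fold change was 0.34 (adjusted p = 0.0011). Of the 4 members below the limit, Hspa1a had from 5 to 13 fragments in a library and Hnrnpa1l2-ps2 from 1 to 6, and Eif4a3l1 and Hspa1l had a single fragment in 1 Control library and 0 in the other libraries. Pqbp1, a polyglutamine-binding protein of the pre-spliceosome without an assigned role here, had a log2 fold change of -0.04 (adjusted p = 0.57), and it passed as lower at -0.18 under median-of-ratios scaling.

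Genes of splicing outside the KEGG term were taken from 6 lists, and their counts stand beside the 48.5% of all genes tested that were higher. In the minor spliceosome, which removes the rare U12-type introns, 6 of 9 genes were higher and 2 lower, from -0.44 for Zmat5 to 0.73 for Rnpc3, with a median of 0.23. The difference of Rnpc3 was 0.97, 0.94 and 0.27 in the 3 MMK-1 libraries and 0.28 after the GC correction. Among the SMN complex and the factors that load Sm rings, 8 of 15 were higher, a share near that of all genes, and none lower, with the top at 0.67 for Gemin4 and a median of 0.19. Of the kinases and phosphatases of SR proteins, 5 of 9 were higher, also near that share, and none lower, with 0.63 for Srpk1 and 0.04 for Clk1. After the GC correction 7 were higher and 1, Clk1, was lower at -0.18 (adjusted p = 0.018). Of the regulators of alternative splicing, 16 of 20 were higher and none lower, with Mbnl3 at 1.06 and Rbm47 at -0.03, which passed as lower at -0.17 under median-of-ratios scaling. The Integrator complex, which forms the ends of small nuclear RNAs, had 9 of 14 higher and none lower, and nonsense-mediated decay had 9 of 12 higher and none lower, with medians of 0.26 and 0.25. All of these medians were above the 0.13 of all genes tested, and under median-of-ratios scaling 1 to 3 genes were lower in each list except the kinases and phosphatases, where none were.

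Markers of the cell types in the organoids moved at the same time. Of all genes tested, 48.5% were higher and 24.7% lower. All 16 tested proliferation genes were higher, with a median of 0.88 and summed levels of 307 to 310 FPKM with the vehicle and 524 to 548 with MMK-1. All 10 tested stem cell markers were higher, with summed levels of 86.0 to 87.8 against 417 to 446 FPKM. Of the 18 enterocyte markers 17 were lower and Fabp1 was higher, at 0.17 but 0.03 under median-of-ratios scaling, and their summed levels were 10910 to 11010 against 5944 to 6369 FPKM. All 8 tested Paneth cell markers were higher, at 393 to 436 against 1284 to 1409 FPKM. Goblet cell markers had 7 of 9 higher and 2 lower, or 4 higher and 2 lower under median-of-ratios scaling, where 35.9% and 36.3% of all genes were, and enteroendocrine markers 7 of 10 higher and none lower. Each of these was an epithelial list, and their part in the difference of the spliceosome genes was not tested. The median log2 difference of the proliferation genes was 0.85, 0.87 and 0.86 in the 3 MMK-1 libraries, whereas that of the SR and Tra2 genes was 0.82, 0.76 and 0.59. Markers of cells outside the epithelium were low, and 2 of 9 immune genes, 1 of 6 fibroblast genes and 0 of 3 endothelial genes reached the FPKM limit. Both immune genes that reached the limit, Cd68 and Itgam, were lower. The sum over the immune list was 6.43 to 7.23 FPKM with the vehicle and 2.46 to 3.66 with MMK-1. Cd68 and Itgam made up most of this sum, with Control means of 3.17 and 2.36 FPKM. Ptprc, Cd3e and Adgre1 had at most 3 fragments in any library, so these values do not show immune cells or a change in their number. The summed levels in any library were at most 5.15 FPKM for fibroblasts and 0.302 for endothelium. Tuft cell markers, none of which reached the limit, summed to 1.47 to 1.61 FPKM with the vehicle and 2.20 to 2.35 with MMK-1.

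RefSeq promoters, from 250 bases before to 50 bases after a start, were available for 99 of the 129 members, and 114 promoters belonged to 95 tested members. The letters CCGGAAGT, a consensus for ETS factors, were present on either strand in 21.1% of these promoters, in 8.83% of the 10891 promoters of all genes tested and in 3.89% of all 32851 promoters. The E2F letters TTTGGCGC, TTTCCCGC or TTTCGCGC were in 9.65%, 3.65% and 1.84%, and the CCAAT box was in 43.9%, 38.3% and 37.4%. The shares of members were lower than those of tested genes for the letters GGGGCGGGG of SP factors, at 12.3% against 21.3%, and for the AP-1 letters TGACTCA, at 1.75% against 3.83%. The E-box CACGTG was in 9.65% and 10.6%, the YY1 letters AAGATGGC in 7.02% and 4.82%, and TATAAA in 9.65% and 7.31%. The motif sets can overlap one another, and the median GC content of the promoters was 59.0% for members and 60.7% for tested genes. Of the promoters shown, that of Srsf10 held the E2F letters at 3 places and a CCAAT box. That of Srsf1 held the E2F letters 67 bases before the start and a CCAAT box from 3 bases before it, which runs past the printed window. Tra2a had a CCAAT box 113 bases before its start and none of the other capitals. Srsf5 held the ETS letters at 2 places, 91 and 23 bases before the start, and Prpf6 held them only after its start, outside the printed window. These counts describe letters and no binding was measured.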

How the data were processed

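Total RNA from small intestinal organoids was sequenced in 3 Control and 3 MMK-1 libraries. The authors deposited FPKM values for 21397 genes, which scale the fragments of a gene by its length and by the library total, so that long genes are measured with less counting error at the same FPKM. The submitters' processing notes name HISAT2, HTSeq, R 3.2.0, DESeq2 and the build mm10, and how strand and shared reads were counted is not given in the sources used here. FPKM at the level of genes does not separate isoforms, such as those of SR genes that are targets of decay.

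Whole fragments were recovered from the FPKM steps for 20663 of 20676 genes above 0 (99.937%), where 99.986% of the values above 0 were within 0.01 of a whole number. They gave the depths and the limma-voom alternative. Genes whose mean FPKM was 1 or more were tested with limma 3.58.1 (R 4.3.3) on log2(FPKM + 1), that is with a pseudocount of 1, with a trend, without a replicate block, and p-values were adjusted by Benjamini-Hochberg over all 10551 genes. This scale understates the changes of low genes. The sources used here do not say whether the replicate numbers pair the libraries. Intervals were not computed from fragments, and numbers of fragments cover counting error only. The fit and the recovery were tested on simulated data. GC content, from GENCODE vM21 transcripts, was known for 98.67% of the tested genes, and a lowess trend on it (span 0.3) was subtracted within each library. Coordinates come from RefSeq on GRCm38.p6. Tables and plots were made in Python 3.11.15 with pandas 2.3.3, numpy 2.4.6 and matplotlib 3.10.9.

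The members, the role groups and the gene lists were chosen with earlier results of these data known, so no list was tested as a set. The genes named included the 8 largest rises and all 4 falls among members that passed with groups that did not overlap. The others were the extremes of each role group and list, the 5 most abundant members, pairs of paralogs and the members under the FPKM limit. Alternatives were other scalings, filters and pseudocounts, a replicate block, a GC correction, leaving out each library, and limma-voom. Columns of per-sample values left out numbered 0, and genes encoding formyl peptide receptors and 1 spliceosome gene are not reported singly here.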

Additional observations from a re-analysis of the deposited data

How the results depend on the processing

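Over all alternatives run, the members that were higher numbered from 71 to 94 against 89 with all libraries, and the 76 and 71 higher under upper-quartile and median-of-ratios scaling were all among the 89. The members that were lower numbered 4, but 11 under upper-quartile scaling and 21 under median-of-ratios scaling, and 3 to 12 when single libraries were left out, with 12 without MMK-1 replicate 3. Members with at least 2-fold higher values numbered 2, where 3.39% of all genes were as high. They numbered 1 under each of these scalings (2.62% and 2.18% of all genes) and 0 after the GC correction with or without the replicate block (3.30%). With a pseudocount of 0.1 or limma-voom they numbered 3 (6.41% and 6.88%). With single libraries left out they numbered 1 to 5 (3.18% to 4.11%), with 5 (Lsm5, Srsf10 and Thoc2 added) without MMK-1 replicate 3. The median log2 fold change of the members was 0.22 under upper-quartile scaling, 0.16 under median-of-ratios scaling, 0.27 over every gene above 0, 0.25 after the GC correction with or without the block, and 0.28 to 0.33 with single libraries left out. With a replicate block alone 86 members were higher and 3 lower, where 47.6% and 24.1% of all genes were. Over all alternatives, 28.1% to 50.6% of all genes tested were higher and 15.2% to 36.3% lower. Same-numbered libraries had correlations of 0.0253, -0.04 and 0.0279 in their deviations from the group means. With 3 libraries a group these values cannot decide whether the numbers pair the libraries by mice or culture. Of the members named by the rule, 7 turned direction: Ddx39b (0.03) and Sf3b2 (0.02) after the GC correction with or without the block, Pqbp1 there (0.03) and without MMK-1 replicate 2 (-0.11 to 0.0034 over the libraries left out), Srsf5 under upper-quartile (-0.03) and median-of-ratios (-0.09) scaling and after the GC correction with or without the block (-0.13), Hnrnpa1 under both scalings (-0.01 and -0.07), and Prpf31 (-0.05) and Prpf40b (-0.02) under median-of-ratios scaling. Other members with log2 fold changes near 0 also turned, such as Bud31, from 0.01 to -0.13 under median-of-ratios scaling, and, after the GC correction, Rp9 (0.02), Snrnp70 (0.01) and Snrnp200 (0.02). Of the values of the members named by the rule under the alternatives, 517 kept their direction and side of the threshold, 22 passed it newly, 11 no longer passed and 15 turned. The cause of these differences was not tested. With 3 libraries a group, 1 of them apart from the others, changes smaller than the standard errors given could not be resolved.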
